A study of Homo sapiens with 4 samples.

Results

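The 10 genes described here are 5 genes of the ATG8 family of small ubiquitin-like proteins (MAP1LC3A, MAP1LC3B, GABARAP, GABARAPL1 and GABARAPL2) and 5 regulators or partners of the same pathway (SQSTM1, WIPI1, ULK1, TP53INP1 and TP53INP2). They were chosen by name: every gene probe whose gene name on the array equals one of the 10 was taken, which gave 13 of 34127 probes and 10 of 27224 gene names. RNA was hybridised to Agilent arrays of 1 colour. It came from LNCaP and PC3, human prostate cancer lines of which the former depends on androgen and the latter does not. Each line was measured as an untreated control and after 24 h with 10 µM atorvastatin (ATO), with medium replaced at the start and cells at about 30% confluence. The study cultured both lines in medium with 10% serum. ATO is a statin, which blocks HMG-CoA reductase and with it the synthesis of cholesterol and of the isoprenoids made from mevalonate. Control and ATO in each line made 4 groups of 1 array, so no value below has a replicate. No vehicle is named in the labels for the control cells.

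Autophagy encloses cytoplasm in a new membrane, the autophagosome, which then fuses with the lysosome so that its contents are degraded. ATG8 proteins are coupled to phosphatidylethanolamine on that membrane, where they help it to grow and hold the cargo receptors. The coupled form of LC3 is a widely used protein marker of autophagosomes, whereas the arrays measured RNA only. ULK1 is the kinase that starts the process, WIPI1 binds the phosphoinositide made on the young membrane, SQSTM1 (p62) carries ubiquitinated cargo to ATG8 proteins, and TP53INP1 and TP53INP2 are related proteins that bind ATG8 proteins.

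The ATG8 family is close enough in sequence that its probes can be laid side by side. The probes of MAP1LC3A, GABARAPL2 and GABARAP cover the same stretch of coding sequence, and the aligned 30 bases of each are shown because these 3 values were read from the family's shared core. Capitals mark the 17 bases identical in all 3 probes.
MAP1LC3A: GAcGAgGAcggcTTccTcTAtaTgGtCTAC
GABARAPL2: GAtGAaGAtggaTTctTaTAtgTgGcCTAC
GABARAP: GAaGAaGActtcTTtcTcTAcaTtGcCTAC
MAP1LC3A shared 22 of 30 bases with GABARAPL2 and 22 with GABARAP, and GABARAPL2 shared 19 with GABARAP. Each probe is 60 bases long, and only the aligned window is printed.

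MAP1LC3B and GABARAPL1 had 2 probes each, and in both genes 1 of them is annotated to a near-identical copy as well. The first 30 bases of the MAP1LC3B probes are shown because the results turn on whether both gave the same answer.
MAP1LC3B brighter probe: aaagggatgttaccaactgagatcgatcag
MAP1LC3B second probe: aaagagtggcatttctcctgtttcaggttt
The brighter probe lies at chr16:85994259-85994318 (hg18, plus strand) and is annotated to MAP1LC3B and to its copy MAP1LC3B2, so its signal may be shared between them. The second probe lies at chr16:85994941-85995000 and is annotated to MAP1LC3B alone. For GABARAPL1 the brighter probe, at chr12:10265943-10266002 (plus strand), is annotated to that gene alone, and the second, at chr12:10266846-10266904, also to GABARAPL3. No exon annotation of hg18 was used here, so the exon or untranslated region of a probe was not assigned.

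Of the 13 probes, 12 were well above background on all 4 arrays. The exception was the second probe of TP53INP1, which was well above background in LNCaP control only. Between 48.5% and 52.9% of the 43118 gene spots on an array were well above background and none (0) was saturated. Between 0.0139% and 13.8% of the spots on an array lay in a bright local background. The markers of the lines followed the labels: KLK3 was at least 1510-fold and TMPRSS2 17.6-fold higher in LNCaP control, whereas CAV1 was at least 379-fold, CD44 at least 227-fold and VIM 150-fold higher in PC3 control. The number of arrays limits the precision, and errors given below are the scanner software's estimate for a spot, which does not cover the variation between dishes of cells. In RNA from whole cultures, fewer cells that express a gene and less of its RNA per cell cannot be told apart.

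Across the 10 genes, ATO was followed by higher signal of WIPI1, ULK1, TP53INP1, TP53INP2 and MAP1LC3B in PC3, at least 1.5-fold each (0.58 on the log2 scale), and of TP53INP2 in LNCaP. No member (0 of 10) was at least 1.5-fold lower in either line. In PC3 this was 5 of 10 members, where 8.38% of all 13815 genes with a value were that much higher and 10.1% that much lower. In LNCaP it was 1 of 10, where 2.72% of 13739 genes were higher and 2.05% lower. The median log2 ratio of ATO over control among the members was 0.59 in PC3 and 0.26 in LNCaP, against 0.0 over all genes in each line. In each line 9 of the 10 ratios lay above 0. Intensities below are as read on each array, and ratios are taken after each intensity was divided by the 75th percentile of its array, equal to 496.8 without and 532.6 with ATO in LNCaP, and 588.2 without and 568.9 with ATO in PC3.

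**Figure D1:**
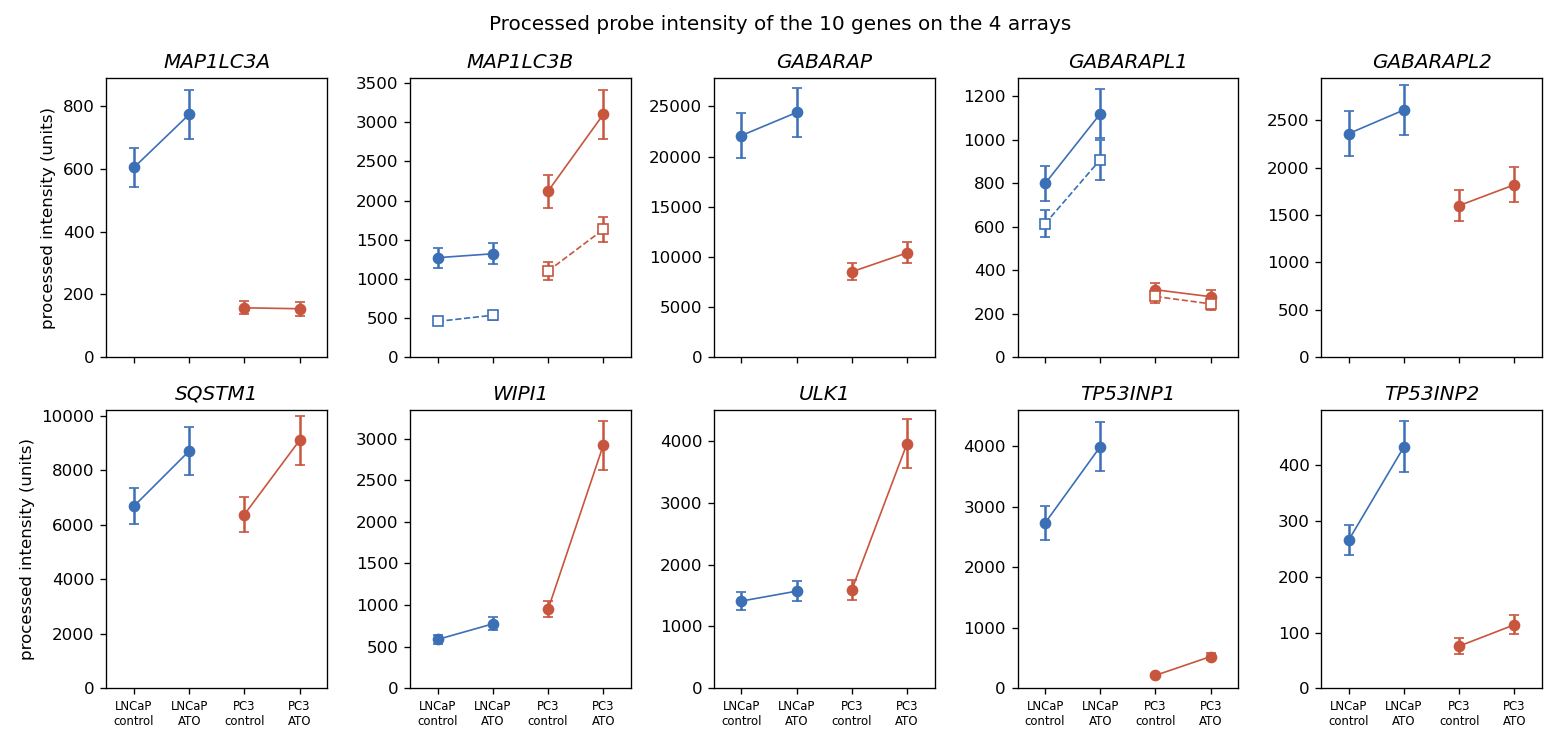
Processed intensity (linear, arbitrary units, from 0) of each member on the 4 arrays, with bars of 1 scanner error estimate and 1 array per group. Filled points are the probe that stands for the gene and open squares the second probe of MAP1LC3B and GABARAPL1. WIPI1 and ULK1 are highest in PC3 ATO, at 2920 and 3950, whereas TP53INP1 and TP53INP2 are highest in LNCaP ATO. The dim second probe of TP53INP1 is not drawn.

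ULK1, the kinase at the start of the pathway, changed in PC3. Its intensity was 1410 without and 1570 with ATO in LNCaP, and 1590 without and 3950 with ATO in PC3 (chr12:130973295-130973354, hg18, plus strand). The first 3 arrays were close to one another and PC3 ATO stood apart. ULK1 rose 2.58-fold in PC3 (log2 ratio 1.37 ± 0.20, scanner SE) and had a log2 ratio of 0.05 ± 0.20 in LNCaP. The difference between these ratios was 1.32 ± 0.29, and the controls of the lines differed by only 1.06-fold.

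WIPI1, which reads the phosphoinositide mark on the forming autophagosome, had the largest ratio of the members in PC3. Its intensity was 588 without and 775 with ATO in LNCaP, and 950 without and 2920 with ATO in PC3 (probe at chr17:63929049-63929108, hg18, minus strand). The PC3 ATO array stood far above the other 3, which ran from 588 to 950. WIPI1 rose 3.19-fold in PC3 (log2 ratio 1.67 ± 0.21), which placed it at rank 36 of 12513 genes measured on both PC3 arrays. In LNCaP the log2 ratio was 0.29 ± 0.21, below the 1.5-fold threshold. The ratio in PC3 exceeded that in LNCaP by 1.39 ± 0.29 on the log2 scale. The spot lay in a brighter local background on the PC3 ATO array (126, with the limit for bright at 120) than on the PC3 control array (88). With normexp correction, which uses the local background of each spot, the log2 ratio in PC3 was 1.59. The part of the local background in the ratio was not tested further.

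MAP1LC3B encodes LC3B, the ATG8 protein most often followed as a marker of autophagosomes. The brighter probe read 1270 without and 1320 with ATO in LNCaP, and 2120 without and 3100 with ATO in PC3. The second probe read 456, 535, 1100 and 1630 in the same order. Both probes put the arrays of PC3 above those of LNCaP and PC3 ATO highest. MAP1LC3B rose 1.52-fold in PC3 by the brighter probe (log2 ratio 0.60 ± 0.20) and 1.55-fold by the second (0.63 ± 0.20). In LNCaP the brighter probe gave -0.05 ± 0.20 and the second 0.12 ± 0.21, and the negative sign was lost with spike-in scaling and with the median over the probes. The ratio in PC3 exceeded that in LNCaP by 0.66 ± 0.29 with the brighter probe and 0.51 ± 0.29 with the second. The count of MAP1LC3B in PC3 was lost with spike-in scaling (0.51) and with normexp background correction (0.58, just under the threshold).

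The order of the MAP1LC3B levels, as log2 of intensity over the array's 75th percentile, ran from 1.32 with ATO and 1.37 without it in LNCaP to 1.85 without and 2.46 with it in PC3. Neighbours in that order differed by more than their scanner error except the 2 LNCaP arrays. Of 11015 genes with signal well above background on every array, the 3 whose levels, centred on each gene's own mean, lay nearest to those of MAP1LC3B were ATP8A1 (root mean square distance 0.030 on the log2 scale over the 4 arrays), TMEM39A (0.034) and CD79A (0.035). Within a distance of 0.1 lay 70 genes.

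MAP1LC3A, the LC3 isoform next to LC3B in the family, behaved otherwise. Its intensity was 604 without and 773 with ATO in LNCaP, and 157 without and 154 with ATO in PC3 (chr20:32611305-32611364, hg18, plus strand). LNCaP held several times the PC3 signal, and the PC3 arrays were alike. ATO over control gave 0.25 ± 0.21 on the log2 scale in LNCaP and 0.03 ± 0.28 in PC3, where it became negative (-0.06) with spike-in scaling. The PC3 ratio minus that of LNCaP was -0.22 ± 0.35, within the scanner error. Neither ratio of ATO over control passed 1.5-fold under any of 11 alternatives in either line. The filters on dim and bright spots and the median over probes could not change these values, which came from a single probe.

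The GABARAP subfamily acts mainly later in autophagosome maturation, and none of its 3 genes passed the threshold. GABARAP read 22100 without and 24400 with ATO in LNCaP, and 8510 without and 10400 with ATO in PC3, with a log2 ratio of 0.03 ± 0.20 in LNCaP and 0.35 ± 0.20 in PC3. Its probe spans 482 bases on hg18 (chr17:7084916-7085397, minus strand), more than its own length. GABARAPL2 read 2360, 2610, 1600 and 1820 in the same order (chr16:74168685-74168744, plus strand), with log2 ratios of 0.03 ± 0.20 in LNCaP, negative (-0.03) with normexp, and 0.24 ± 0.20 in PC3. In both genes the LNCaP arrays were the higher, and the ATO intensity exceeded the control by little in either line.

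GABARAPL1, first described as a gene induced by estrogen, had its larger ratio in LNCaP. The brighter probe read 799 without and 1120 with ATO in LNCaP, and 310 without and 278 with ATO in PC3. The second read 614, 909, 279 and 245 in the same order. Both probes were highest in LNCaP ATO and lowest in PC3 ATO. The log2 ratio was 0.37 ± 0.21 in LNCaP (1.29-fold) and -0.10 ± 0.22 in PC3 by the brighter probe, and 0.46 ± 0.21 and -0.14 ± 0.22 by the second. With the 50th percentile in place of the 75th the sign in PC3 turned to 0.09. The PC3 ratio lay below that of LNCaP by -0.47 ± 0.30 with the brighter probe and -0.59 ± 0.30 with the second, the opposite order to MAP1LC3B.

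SQSTM1, the cargo receptor that is itself degraded by autophagy, read 6680 without and 8700 with ATO in LNCaP, and 6370 without and 9090 with ATO in PC3 (chr5:179196315-179196374, hg18, plus strand). The controls were alike and both ATO arrays were the higher. Its log2 ratio was 0.27 ± 0.20 in LNCaP (1.21-fold) and 0.57 ± 0.20 in PC3 (1.48-fold), the latter just under the threshold. In PC3 it passed in 2 of 11 other ways of processing (the 50th percentile and normexp), with values from 0.48 to 0.76. The filters on dim and bright spots and the median over probes could not change the value of its single probe. The PC3 ratio exceeded that of LNCaP by 0.30 ± 0.29, little more than the scanner error.

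TP53INP1, a p53-induced stress protein that can enter autophagosomes through its ATG8-binding motif, combined a large difference between the lines with a change in PC3. The intensity of its brighter probe was 2730 without and 3990 with ATO in LNCaP, and 216 without and 526 with ATO in PC3. Both LNCaP arrays were far above both PC3 arrays, and in each line the ATO array was the higher. TP53INP1 rose 2.52-fold in PC3 (log2 ratio 1.34 ± 0.22), and its ratio in LNCaP was 1.35-fold (0.44 ± 0.20). The study found no p53 protein in PC3 with or without ATO, and what lay behind the rise was not tested. The second probe read 39.2, 13.3, 12.1 and 17.1 on the arrays in the same order, at or near background, and gave no ratio in PC3. Taking the median over both probes turned the LNCaP value to -0.62 and left the PC3 value at 0.94.

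TP53INP2, a relative of TP53INP1 that shuttles from the nucleus to autophagosomes and binds ATG8 proteins, was the member counted in both lines. Its intensity was 266 without and 433 with ATO in LNCaP, and 75.8 without and 114 with ATO in PC3 (chr20:32763818-32763877, hg18, plus strand). In each line the ATO array was the higher, and both PC3 arrays lay below both LNCaP arrays. TP53INP2 rose by 0.59 ± 0.21 on the log2 scale in LNCaP (1.51-fold) and by 0.64 ± 0.35 in PC3 (1.56-fold), and the ratios differed by 0.05 ± 0.41. Both values lie just past the threshold of 0.58: the count held in 7 of 11 other ways of processing in LNCaP, with values from 0.35 to 0.74, and in 9 of 11 in PC3, with values from 0.44 to 0.84. Among these, the filters on dim and bright spots and the median over probes could not change the value of a gene with a single probe. The LNCaP count was lost with the 50th percentile, quantile normalization, normexp and the deposited ratios. In PC3 it was lost with spike-in scaling and normexp. MAP1LC3B and TP53INP2 are also on the study's list of possible miR-182 targets. The study predicted these with TargetScan and PicTar and then screened them with these arrays, so their direction in PC3 is not independent evidence for that list. Both stand there as upregulated, whereas the study expected direct targets most likely to fall.

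**Figure D2:**
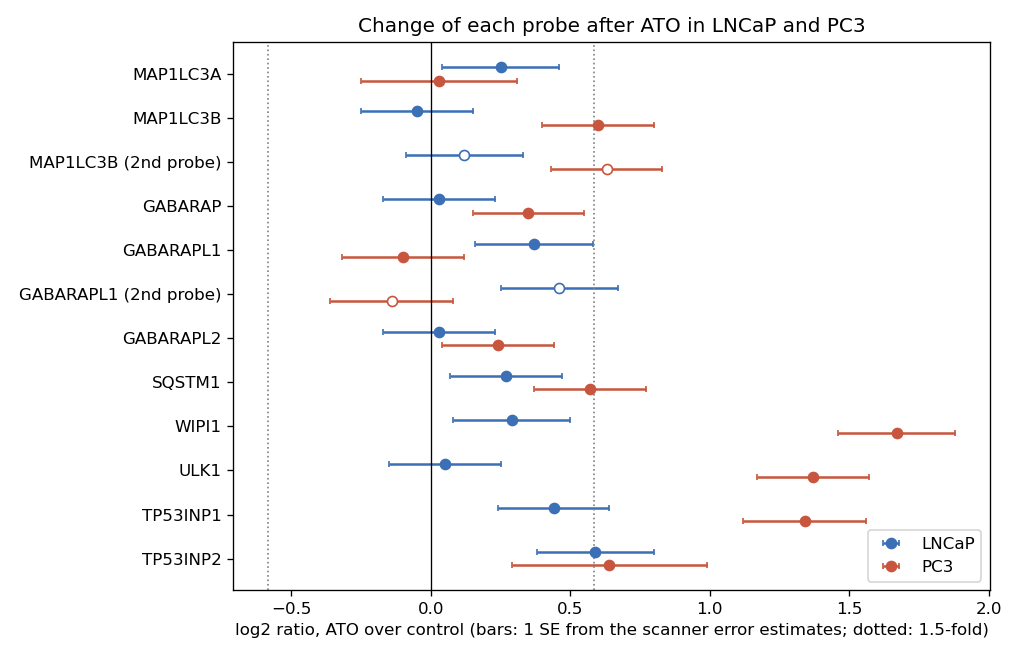
Log2 ratio of ATO over control (x axis) for each member probe in LNCaP and PC3, with bars of 1 SE from the scanner error estimates and dotted lines at 1.5-fold. WIPI1, ULK1 and TP53INP1 in PC3 lie at 1.34 to 1.67, beyond their own LNCaP points. Of the probes drawn, those of GABARAPL1 have the larger ratio in LNCaP, with a PC3 sign that turned to 0.09 for the brighter probe with the 50th percentile. That of MAP1LC3A has it too, but its ratios differ by less than the scanner error (-0.22 ± 0.35).

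Set among all genes measured on both arrays of a line, the members lay mostly in the upper part. In PC3, WIPI1 was at rank 36, ULK1 at 86 and TP53INP1 at 89 of 12513 genes, followed by TP53INP2 at 750, MAP1LC3B at 870 and SQSTM1 at 1002. In LNCaP, TP53INP2 was at rank 188, TP53INP1 at 405 and GABARAPL1 at 550 of 12236. WIPI1 was at rank 914 and ULK1 at 4748 in LNCaP. MAP1LC3B lay at rank 7758 in LNCaP and GABARAPL1 at 8016 in PC3, each in the lower part of the list. The genes of a line spread less in LNCaP (SD of the log2 ratios 0.24) than in PC3 (0.44), so the same ratio ranks higher in LNCaP.

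**Figure D3:**
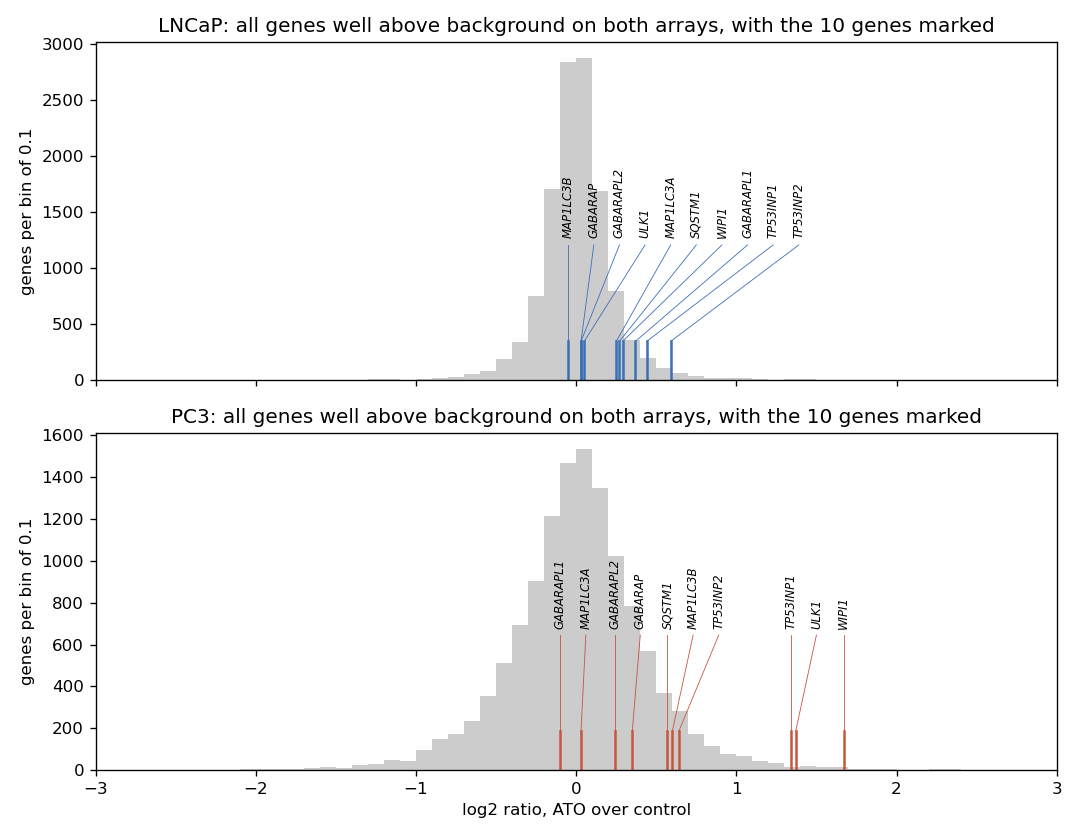
Histograms of the log2 ratio of ATO over control for all genes well above background on both arrays of a line (y axis, genes per bin of 0.1), with the 10 members marked. The PC3 distribution is the wider, and WIPI1, ULK1 and TP53INP1 lie in its upper tail at ranks 36, 86 and 89. The x axis ends at -3 and 3, which leaves out 2 genes in LNCaP and 3 in PC3.

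The test made asked for a treatment effect shared by both lines. In limma, with cell line as a block and 1 residual degree of freedom, none (0) of 11902 genes had an adjusted p under 0.05 (smallest 0.763), and 519 (4.36%) had an unadjusted p under 0.05. All 10 members were tested, and 2 were among these. TP53INP2 had a shared log2 change of 0.62 (SE 0.13, limma adjusted p = 0.763), with ATO higher in both lines. TP53INP1 had 0.89 (SE 0.27, limma adjusted p = 0.763), also higher in both lines. SQSTM1 followed at 0.42 (SE 0.15), past neither level, while WIPI1, whose change lay mainly in PC3, had 0.98 with the larger SE of 0.39 (limma adjusted p = 0.763). The difference between the lines left no residual degree of freedom and was not tested for any member.

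The untreated lines were compared for their levels of the members, with 1 array against 1 and no test. At 2-fold, 5 of 10 members were higher in untreated LNCaP and 0 in untreated PC3, where 19.3% of 15237 genes were higher in LNCaP and 20.4% in PC3. TP53INP1 was 15.1-fold higher in LNCaP, MAP1LC3A 4.58-fold, TP53INP2 4.19-fold, GABARAP 3.11-fold and GABARAPL1 3.08-fold. GABARAPL2 was 1.76-fold and SQSTM1 1.25-fold higher in LNCaP, and ULK1 differed by 1.06-fold. WIPI1 was 1.35-fold and MAP1LC3B 1.40-fold higher in PC3, the latter 2.01-fold by its second probe. Of the ATG8 genes, MAP1LC3B had its higher signal in PC3 and the other 4 in LNCaP. This comparison shares the control arrays with the ratios of ATO over control, so the values are not independent of them. Side by side, TP53INP1 read 216 in PC3 control and rose 2.52-fold there, and MAP1LC3A read 157 and had a ratio of 1.02-fold.

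The rest of the pathway is described with 6 lists holding 110 other genes. In PC3, 15 of 104 genes with a value (14.4%) were at least 1.5-fold higher and 4 (3.85%) lower, beside 8.38% and 10.1% of all genes, and the median log2 ratio was 0.14. Without genes in a bright local background on any array, 9 of 68 passed upward and 2 downward. Scaling by the 50th percentile gave 23 higher and 1 lower, and that scaling moved the median of all genes in PC3 by 0.19. The share of all genes was not counted again under either setting. In LNCaP, 2 of 103 (1.94%) were higher and 1 (0.971%) lower, beside 2.72% and 2.05%, with a median of 0.03. The shares of all genes in each line also stand beside the counts of the single lists below.

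Among the kinases and nutrient sensors that act beside ULK1, 3 of 18 rose and 0 fell in PC3, with a median of 0.16. DDIT4, an inhibitor of the mTORC1 kinase complex that restrains ULK1, read 458 in PC3 control and 2080 in PC3 ATO (4.72-fold), and 2480 and 4200 in LNCaP (1.56-fold). It was the gene of this list that passed in both lines, and its PC3 spot lay in a bright local background on at least 1 array. SESN2, a stress-induced activator of AMPK, rose 2.82-fold in PC3 and PRKAA2, a catalytic subunit of AMPK, by 0.74 ± 0.36 on the log2 scale, both named after their values were seen. PRKAA2 was dim, at 64.8 in PC3 control and 104 in PC3 ATO. PRKAA1, another catalytic subunit, had 0.25 in PC3 by each of its probes. The partners of ULK1 in its complex did not pass: ATG13 had a log2 ratio of 0.53 (0.36 by its other probe), RB1CC1 of 0.13 and ATG101 of 0.30 in PC3.

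Among the genes for the lipid kinase and the supply of membrane, where WIPI1 belongs by function, 4 of 17 rose and 0 fell in PC3, with a median of 0.14. SH3GLB1, a membrane-bending partner of the lipid kinase complex, read 1330 in PC3 control and 2660 in PC3 ATO (log2 ratio 1.05), although its other probe gave 0.32. ZFYVE1, which marks the membrane from which autophagosomes arise, rose by 0.87, WDR45, a relative of WIPI1, by 0.69, and UVRAG, a subunit of the lipid kinase complex, by at least 1.66, all 3 named after their values were seen. The core subunits BECN1, at 0.14, and PIK3C3, at -0.05, did not pass in PC3. In LNCaP none (0 of 15) passed, with a median of 0.07.

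The enzymes that couple ATG8 proteins to the membrane gave 3 of 11 higher and 1 lower in PC3, with a median of 0.14. ATG10, the E2-like enzyme for ATG12, read 168 in PC3 control and 324 in PC3 ATO (2.01-fold, bright local background). ATG12 rose by 0.62 (bright local background, 0.40 by its other probe) and its partner ATG16L1 by 0.61 (0.64 by its other probe), both named after their values were seen. ATG4C, a protease that trims ATG8 proteins, fell by 0.60 on the log2 scale in PC3, from 570 to 361, and its other measured probe gave -0.88. ATG5, at 0.14, and ATG7, at -0.18, did not pass. In LNCaP none (0 of 11) passed and the median was -0.08.

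Of the cargo receptors other than SQSTM1, 1 of 12 (8.33%) rose in PC3, beside 8.38% of all genes. In LNCaP 1 of 10 rose, beside 2.72% of all genes. WDFY3, named after its values were seen, had a log2 ratio of -0.04 in PC3, whereas its other probe, which did not enter the count, gave 1.44. STBD1, a receptor for glycogen, read 317 in PC3 control and 555 in PC3 ATO (1.82-fold). RETREG1, a receptor for endoplasmic reticulum that the array names FAM134B, read 482 in LNCaP control and 799 in LNCaP ATO (1.53-fold), and 85.4 and 113 in PC3 (1.38-fold, bright local background). NBR1, the relative of SQSTM1, had log2 ratios of 0.11 in LNCaP and 0.13 in PC3.

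The list of fusion and lysosomal genes had the smallest median of the 6 in PC3, at 0.05, and there 1 of 35 rose and 2 fell. PLEKHM1, an adaptor that links ATG8 proteins to the fusion machinery, read 1070 and then 1850 after ATO in PC3 (1.79-fold), with 0.34 to 0.39 on the log2 scale from its other probes. EPG5, a tether for fusion that the array names KIAA1632, fell by 0.76 in PC3, and ATP6V1H, a subunit of the proton pump named after its value was seen, by 0.72 (bright local background). LAMP1 and LAMP2, the main membrane proteins of the lysosome, had PC3 log2 ratios of 0.08 (bright local background) and 0.26, and another probe of LAMP2 gave -0.28. In LNCaP they had 0.07 and 0.09, with 0.04 to 1.96 from the other probes of LAMP2. In LNCaP none (0 of 37) was at least 1.5-fold higher, with a median of 0.01.

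Among 12 transcription factors known to act on autophagy genes, 3 of 11 with a value rose and 1 fell in PC3, with a median of 0.31. DDIT3 (CHOP), a stress-induced factor, read 939 in PC3 control and 3380 in PC3 ATO (3.74-fold), and 775 and 1210 in LNCaP (1.45-fold, bright local background). XBP1 rose by 1.03 (bright local background) and ATF4 by 0.59 in PC3, both named after their values were seen. E2F1, which also drives the genes of DNA replication, fell by 0.86 in PC3, from 1220 to 651 (bright local background). TFEB, the main factor for lysosomal genes, had log2 ratios of 0.01 in LNCaP and 0.31 in PC3 (bright local background), and its other probe gave 0.98 in PC3. FOXO3 had 0.10 and 0.35, with 0.09 to 0.51 from its other probes in PC3.

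**Figure D4:**
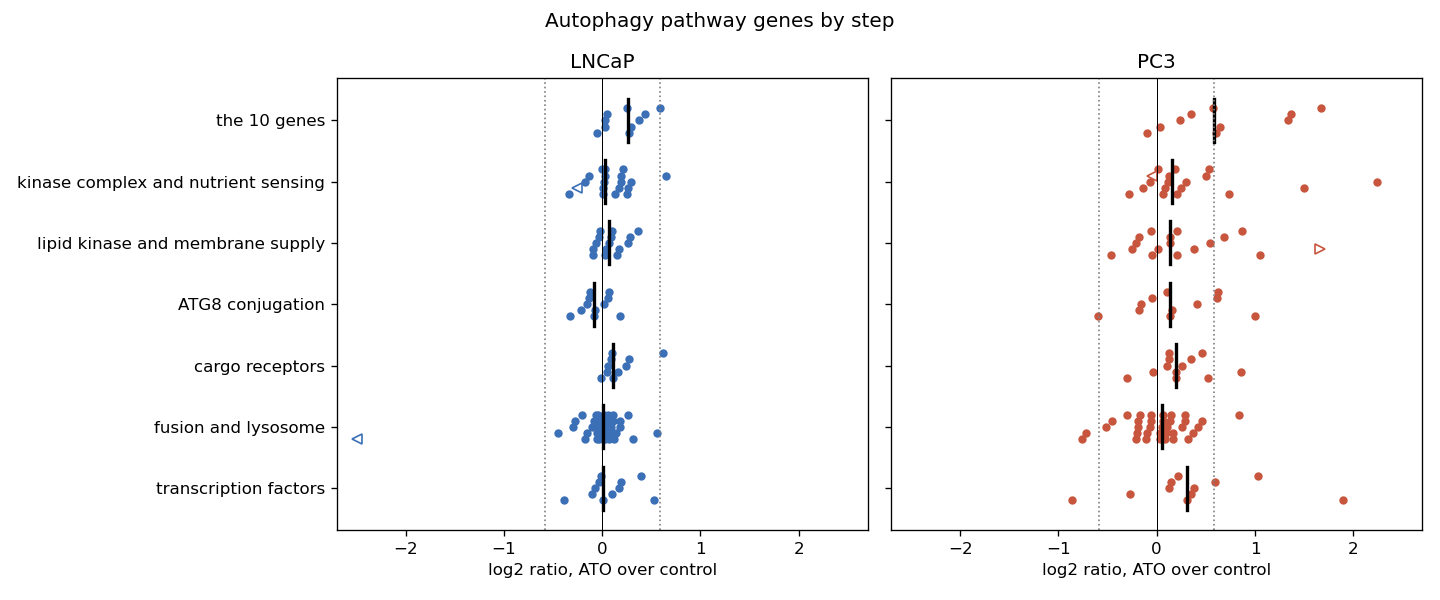
Log2 ratio of ATO over control (x axis) for the 10 members and the 6 other pathway lists (y axis) in LNCaP and PC3. Points are genes, open triangles bounds of genes well above background on 1 array only, thick bars list medians and dotted lines 1.5-fold. The median of the members is 0.26 in LNCaP and 0.59 in PC3, those of the other lists reach 0.10 and 0.31, and 1 bound in LNCaP that lies beyond the x axis is drawn at its left edge.

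The stretches of DNA just before the start of transcription were read for letters known to bind factors of this pathway, and for the GC box. RefSeq (GRCh38.p14) gave windows for 8 of the 10 genes, 11 windows in all, with 250 bases before the start. MAP1LC3A and TP53INP1 were without a window. The cyclic AMP response element TGACGTCA lay in the window of GABARAPL1, in 1 but not the other window of TP53INP2, and in 1.65% of all 35116 windows. The antioxidant response element TGACNNNGC lay in that of MAP1LC3B and in 10.9% of all. The GC box GGGCGG lay in all 11 windows of the 8 genes and in 42.6% of all. The share of G and C in the member windows ran from 51.6% in GABARAPL1 to 78.0% in ULK1 and 79.6% in WIPI1, and was not compared with that of all windows. The CLEAR E-box core CACGTG and the FOXO element TGTTTAC lay in none (0 of 8), and in 6.34% and 2.98% of all windows. All letters were searched on both strands, and TGACGTCA contains the shorter TGACGT, which 7.10% of all windows hold.

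The last 120 bases before the start are shown for WIPI1 and ULK1, which had the largest ratios in PC3, and for MAP1LC3B, GABARAPL1 and TP53INP2, whose windows held a motif other than the GC box. Capitals mark the GC box on either strand in WIPI1 and ULK1, the antioxidant response element in MAP1LC3B, and the cyclic AMP response element in GABARAPL1 and TP53INP2.
WIPI1: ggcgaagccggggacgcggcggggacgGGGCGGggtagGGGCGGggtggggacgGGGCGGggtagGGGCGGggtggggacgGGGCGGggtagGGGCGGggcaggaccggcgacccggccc
ULK1: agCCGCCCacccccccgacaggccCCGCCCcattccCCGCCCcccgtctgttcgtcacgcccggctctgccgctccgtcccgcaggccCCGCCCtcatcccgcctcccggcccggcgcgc
MAP1LC3B: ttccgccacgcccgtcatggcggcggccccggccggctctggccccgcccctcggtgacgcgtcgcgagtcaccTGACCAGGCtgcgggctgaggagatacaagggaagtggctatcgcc
GABARAPL1: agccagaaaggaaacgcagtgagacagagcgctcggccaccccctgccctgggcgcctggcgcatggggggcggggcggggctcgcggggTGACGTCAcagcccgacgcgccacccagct
TP53INP2: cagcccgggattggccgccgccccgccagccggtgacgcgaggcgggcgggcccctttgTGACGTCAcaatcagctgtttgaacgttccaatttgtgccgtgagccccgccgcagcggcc
On GRCh38.p14 these stretches are WIPI1 at chr17:68457497-68457616 (minus strand), ULK1 at chr12:131894502-131894621 (plus strand), MAP1LC3B at chr16:87392216-87392335 (plus strand), GABARAPL1 at chr12:10212757-10212876 (plus strand) and TP53INP2 at chr20:34704224-34704343 (plus strand). That of WIPI1 held 6 GC boxes and that of ULK1 held 4. In the full 250 bases WIPI1 held 9 and ULK1 held 5. There GABARAPL2 and MAP1LC3B held 3 each, GABARAPL1 2, GABARAP 1, the SQSTM1 windows 2 to 4 and those of TP53INP2 2 to 3. The number of GC boxes per window was not counted over all genes, and any relation to the ratios was not tested. The motif began 46 bases before the start in MAP1LC3B, 30 in GABARAPL1 and 61 in TP53INP2. GABARAPL1 and TP53INP2, which share the cyclic AMP response element, had log2 ratios of 0.37 and 0.59 in LNCaP and of -0.10 and 0.64 in PC3, with the sign of GABARAPL1 in PC3 turning to 0.09 with the 50th percentile. A match of letters is a description, and binding was not measured.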

How the data were processed

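Values came from the scanner files of 4 arrays, 1 per group, all on 1 slide and from 1 scan, so that position on the slide cannot be told apart from group. Per the file headers, the authors obtained spot intensity with Agilent Feature Extraction 9.5.3.1, which subtracted a fitted background, corrected a trend over the slide and gave an error estimate for each spot. The study's methods name GeneSpring for later steps, which was not rerun. The deposited table holds the ratio of the processed intensity to the array's 75th percentile, with a lowest value of 0.03, and served as an alternative.

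Outlier spots were left out, the spots of a probe were averaged as log2 intensity (33128 of 34127 probes had 1 spot), and the 75th percentile over the probes of the array was subtracted. A gene was represented by its brightest probe with unflagged spots on all 4 arrays. A probe was well above background where over 50% of its spots were. Genes were counted at 1.5-fold within a line and 2-fold between controls. Where a probe was well above background on 1 array only, a bound was formed: the dim side was entered at the lowest value that counted as well above background there, or at its own value if that was larger, and such differences read "at least". The SE of a ratio combines the scanner error estimates of its arrays. A local background was called bright above the array's median plus 5 median absolute deviations.

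Within a line, 1 array against 1 gives no p-value. The treatment was tested over both lines with limma 3.58.1 (R 4.3.3; lmFit and eBayes, two-sided, Benjamini-Hochberg over all genes tested) with cell line as a block, on genes that were well above background in the controls of both lines or with ATO in both. Labels do not say whether the arrays stand for separate cultures. With 1 residual degree of freedom, the residual of a gene is the difference of its ATO ratio between the lines, which eBayes combines with the spread of all genes. The p-values therefore do not measure the spread between cultures. The scripts were tested on simulated data. Other steps used Python 3.11.15, numpy 2.4.6, pandas 2.3.3 and matplotlib 3.10.9.

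The members, the 6 pathway lists, the markers, the thresholds and the alternatives were chosen with earlier results of these data known. The text names all members, the highest and lowest counted gene of each list in each line among those well above background on both arrays, the 3 genes most like MAP1LC3B and the line markers, except some items that are not reported here. Core subunits and other genes outside this rule are named as such or given as background to a list. The files give probe coordinates on hg18. Promoter windows and current symbols are from RefSeq on GRCh38.p14. Alternatives covered 5 other scalings or value sources, the background correction, the filters on dim, outlying and bright spots, the probe rule, the threshold and, for limma, an intensity trend and no block.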

Additional observations from a re-analysis of the deposited data

Results flagged for a closer look

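For MAP1LC3B, the log2 ratio of ATO over control by the brighter probe was 0.60 in PC3 and -0.05 in LNCaP. These signs are opposite, and the difference was 0.66. The second probe gave 0.63 and 0.12, positive in both lines, and the sign of the brighter probe in LNCaP also turned with spike-in scaling. For GABARAPL1 the order was the reverse, with a log2 ratio of -0.10 in PC3 and 0.37 in LNCaP, a difference of -0.47. Its second probe gave -0.14 and 0.46, and the sign in PC3 turned to 0.09 with the 50th percentile. With 1 array per group these differences were not tested, and the smaller ratio of each gene lay within its scanner error.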

How the results depend on the processing

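No paired analysis by replicate number was possible because each group had 1 array, and no array could be left out; the limma fit pairs ATO with control only through the cell line block. The 1 member counted in LNCaP became 0 with the 50th percentile, quantile normalization, normexp, the deposited ratios or a 2-fold threshold, and 2 with the median over probes. The 5 members counted in PC3 became 3 (TP53INP1, ULK1 and WIPI1) with spike-in scaling or a 2-fold threshold. The 5 counted between controls became 3 at 4-fold. The 3 pathway genes counted in LNCaP became 5 with spike-in scaling, 9 with no filter on dim probes, and 1 with bright local backgrounds left out or at 2-fold. The 19 in PC3 became 11 of 68 genes with bright local backgrounds left out and 7 at 2-fold. In limma, the 2 members at an unadjusted p under 0.05 became 5 with the 50th percentile, 4 with spike-in scaling or with genes well above background on both arrays, 1 with the median over probes, and 0 with no filter or no cell line block, with the smallest adjusted p between 0.438 and 1.0. The cause of these shifts was not tested, beyond fewer genes or a stricter threshold where that is the setting. Of 20 member ratios, 15 kept their sign under every alternative run, and 215 of 218 values lay within 1 scanner SE of the reported value (that gene's own, as printed with its ratio), the others being TP53INP2 in LNCaP with normexp (0.35) and TP53INP1 with the median over probes (-0.62 in LNCaP and 0.94 in PC3), where the second probe is dim. The 3.19-fold ratio of WIPI1 in PC3, and those of ULK1 and TP53INP1, passed 1.5-fold under every alternative that could be run for them (10, 11 and 11). These counts, the 215 of 218 values and the 15 kept signs all include settings that could not change a value. Such settings were the filters on dim and bright spots and, for genes with a single probe, the median over probes. The deposited ratios rest on the same percentile of each array as the reported values. The 215 of 218 values are therefore not that many separate checks. Spike-in scaling moved the median of all genes by 0.13 in LNCaP and -0.09 in PC3. Signal near background limits the second probe of TP53INP1 and the PC3 values of TP53INP2.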
